A study of Capra hircus with 9 samples.

Results

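The genes described are the goat matrix metalloproteinases (MMP), the ADAMTS and ADAMTS-like proteins, the ADAM proteins and the tissue inhibitors of metalloproteinases (TIMP). They were taken by symbol alone, and the families were chosen with earlier results of these data known. Of the 23499 genes in the deposited table, 65 had a symbol of these families, namely 20 MMP, 19 ADAMTS, 5 ADAMTSL, 17 ADAM and 4 TIMP genes. Of these, 42 were expressed highly enough to be tested, and all 65 are accounted for below.

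MMP, ADAMTS and ADAM proteins are zinc proteases of the extracellular space and the cell surface. MMPs cut collagens, laminin and other matrix proteins, ADAMTS proteases cut proteoglycans and trim procollagens, and ADAMs mainly release the outer parts of membrane proteins, a step called shedding. Most are made as inactive precursors, and TIMPs block the active site once the precursor has been removed. In the mammary gland these proteases and their inhibitors are known for ductal growth during development and for the breakdown of the basement membrane when secretory alveoli regress after milking stops. A level of mRNA says nothing about how much of a protease was active.

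The study compared stages of the reproductive cycle in the mammary gland of the dairy goat. The 9 libraries came from 9 healthy adult Laoshan dairy goats in the third parity, kept on 1 farm and sampled at slaughter. There were 3 libraries of late lactation (LL, 240 days postpartum), 3 of the dry period (DP, 300 days postpartum) and 3 of late gestation (LG, 140 days after mating). Each library is whole mammary tissue of a different goat, the labels name no treatment, and no goat was sampled at more than 1 stage. How long the DP goats had been dry and whether they were pregnant are not given in the sources used here. Epithelial keratins were present in every library, and the milk protein genes CSN2, CSN1S1 and LALBA summed to 276256 to 446771 scaled FPKM in LL, 30.1 to 45.9 (DP) and 5149 to 6885 (LG).

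Values are those that the authors deposited. They were read as FPKM, fragments per kilobase of gene scaled to sequencing depth, a unit that the deposited table does not name. In LL the 10 highest genes held 80.6% to 86.0% of a library's summed FPKM, against 53.6% to 58.5% in DP and LG. The libraries were therefore brought to a common scale, with factors of 0.498 to 0.605 (LL), 1.44 to 1.53 (DP) and 1.198 to 1.31 (LG), and levels below are scaled FPKM of replicates 1, 2 and 3 in that order. As deposited, unscaled, the values shift the median over all tested genes by 1.09 on the log2 scale in DP versus LL, by 0.93 in LG versus LL and by -0.18 in LG versus DP. Log2 fold changes are differences of log2(scaled FPKM + 1), which understates the change of genes with low levels. A gene was called when limma gave an adjusted p under 0.05 and the log2 fold change reached 1 in either direction, and "higher" or "rose" and "lower" or "fell" are used of called genes. The files give no read numbers, so the counting error of the levels could not be estimated.

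DP was the stage with the highest levels of these families. In DP versus LL 21 of the 42 tested genes were called higher and 0 lower, where 13.8% of all 14701 genes tested were called higher and 8.79% lower. At an unadjusted p under 0.05, 3 of the 42 (7.14%) were lower in DP, beside 31.3% of all genes. In LG versus DP 0 were higher and 20 were lower, beside 6.37% and 6.88% of all genes, and 3 of the 42 were higher at an unadjusted p under 0.05, beside 23.6%. In LG versus LL 7 were higher and 3 lower, beside 10.7% and 6.61% of all genes, and without scaling this split was 16 and 1, beside 45.6% and 2.35% of all genes. The median log2 fold change of the 42 genes was 0.96 in DP versus LL, 0.01 in LG versus LL and -0.88 in LG versus DP, where the median of all genes was 0.00, 0.02 and 0.01. The comparisons share libraries, so their counts are not independent of each other. The 3 DP libraries were all above the 3 LL libraries in 28 of the 42 genes and all below in 3, beside 32.5% and 33.4% of all genes. LG lay above LL without overlap in 15 and below in 10, beside 31% and 30.2%, and above DP in 2 and below in 26, beside 25.1% and 22.8%.

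These counts depend in part on which genes passed the minimum of 0.5 FPKM in 3 libraries. Of the 42 genes, 19 reached it in all 9 libraries, and of these 6 were called higher in DP versus LL, 0 lower, and 0 higher and 9 lower in LG versus DP. The share called among all genes that reached it in all 9 libraries was not computed. A further 18 passed without any LL library, 3 of them (MMP7, MMP16 and ADAMTSL2) through DP libraries alone. The other 15 were MMP1, MMP11, MMP28, MMP23B, ADAMTS4, ADAMTS5, ADAMTS15, ADAMTS2, ADAMTS3, ADAMTS10, ADAMTS17, ADAMTSL3, ADAM8, ADAM19 and ADAM33. For all 18 a low LL level as deposited was a condition of being tested, wherever they are described below. As deposited, such genes had to have 3 or more libraries of other stages above every LL library. The minimum was applied before scaling, so on scaled values it was strictest in LL, which had the lowest factors. Scaled levels of these genes therefore did not have to be higher outside LL. MMP9 passed without any LG library. Without DP replicate 3, which stands apart as described further down, 18 genes were higher in DP versus LL and 16 were lower in LG versus DP. Of all 14701 genes, 1982 and 970 were so called.

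**Figure D1:**
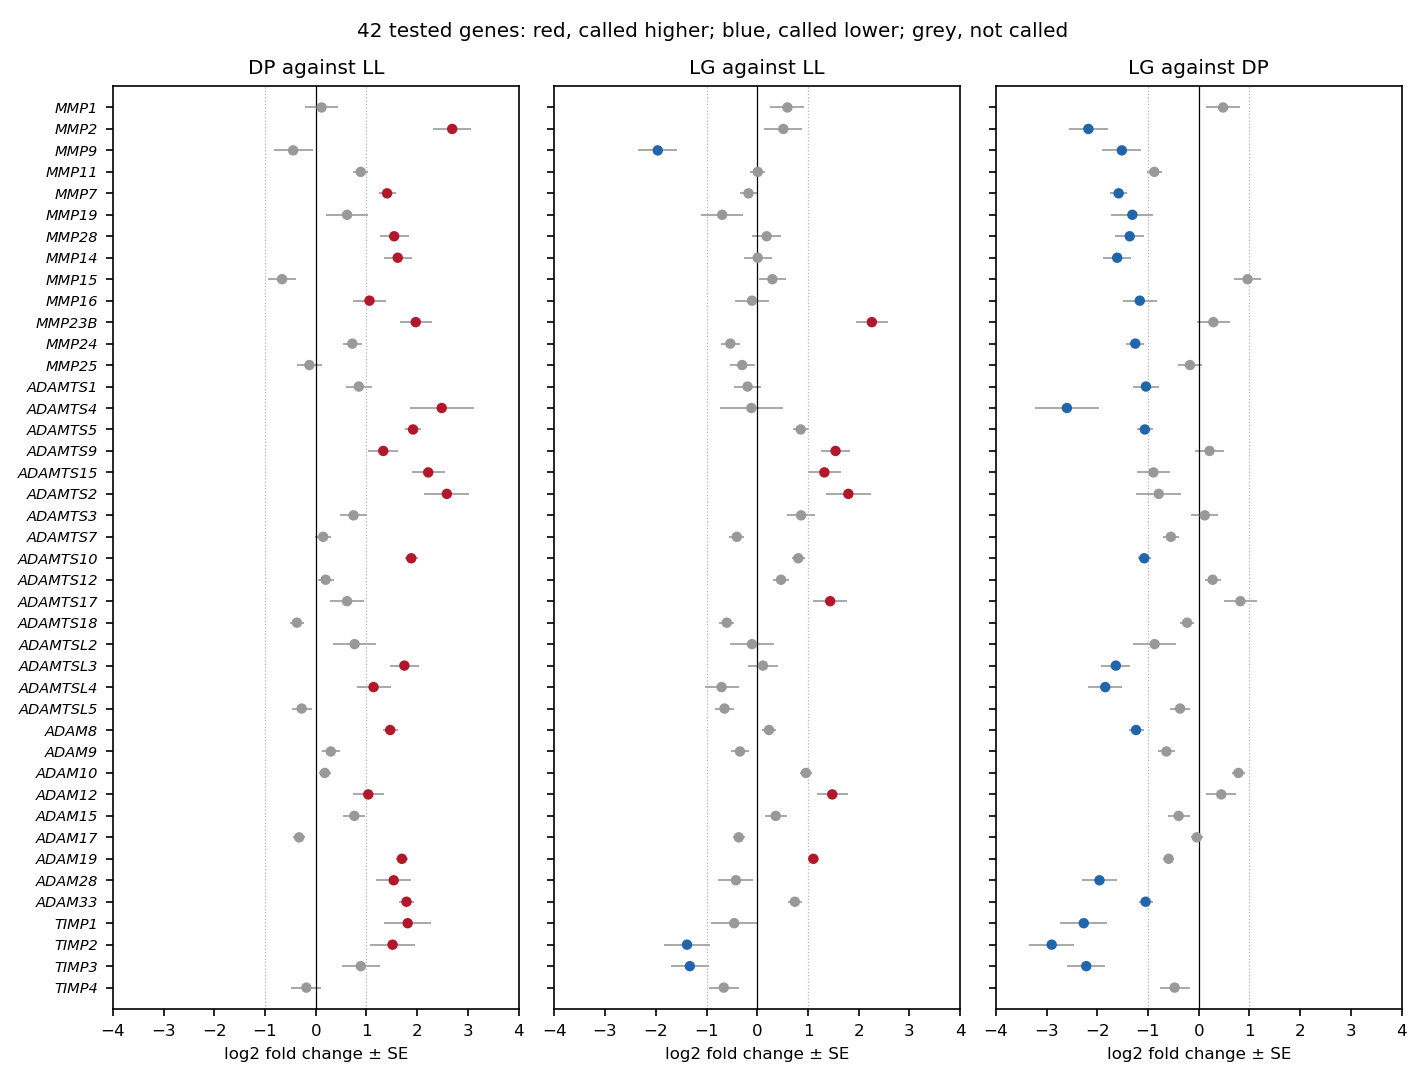
Log2 fold change of log2(scaled FPKM + 1) with its standard error for the 42 tested genes in DP versus LL, LG versus LL and LG versus DP, with dotted lines at the call threshold of 1. In DP versus LL 21 genes are called higher and 0 lower, and in LG versus DP 0 are called higher and 20 lower.

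Among the inhibitors, TIMP1, TIMP2 and TIMP3 had their highest means in DP and fell in LG, whereas no comparison called TIMP4. TIMP3, which is held in the matrix and also blocks ADAM17 and the ADAMTS proteases that cut aggrecan, had the highest mean of all 65 genes at every stage (gene 102190027, chromosome 5, 70075729 to 70134562). Its level was 88.3, 65.4 and 84.5 (LL), 85.98, 135 and 271 (DP) and 22.6, 32.6 and 39.4 (LG). LL and DP overlapped, and all 3 LG libraries were below both. The log2 fold change of TIMP3 was -2.22 ± 0.37 (SE, adjusted p = 0.00185) in LG versus DP, -1.33 ± 0.37 (SE, adjusted p = 0.0148) in LG versus LL and 0.89 ± 0.37 (SE, adjusted p = 0.0665) in DP versus LL. The call in LG versus LL was lost without LG replicate 1 (-1.11, adjusted p = 0.0562), without scaling (-0.17) and under quantile normalization (-0.95), and a call in DP versus LL was gained without DP replicate 1 (1.27).

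TIMP2, which both inhibits MMP2 and, bound to MMP14, presents the MMP2 precursor for activation, was 23.99, 15.003 and 20.8 (LL), 28.6, 55.6 and 120.3 (DP) and 5.23, 10.3 and 5.96 (LG) (gene 102178107, chromosome 19, 52668335 to 52723664). No LG library reached the lowest LL or DP library, and DP replicate 3 was over 2 times each other DP library. TIMP2 rose by 1.51 ± 0.45 (SE, adjusted p = 0.0169) in DP versus LL and fell in LG, with -2.90 ± 0.45 (SE, adjusted p = 0.00117) against DP and -1.38 ± 0.45 (SE, adjusted p = 0.0274) against LL. The rise in DP stood at 0.99 without DP replicate 3 and 1.31 without LL replicate 2, and was not called in either case. The fall in LG versus LL was not called without LL replicate 1 (-1.26), LL replicate 3 (-1.36), LG replicate 1 (-1.21) or LG replicate 3 (-1.29). Nor was it called without scaling (-0.30) or without the filter (-1.38, adjusted p = 0.0521).

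TIMP1, an inhibitor of most secreted MMPs, was 13.6, 12.2 and 15.3 (LL), 29.7, 33.3 and 128 (DP) and 7.47, 12.5 and 9.74 (LG) (gene 100860924, chromosome X, 20056638 to 20060292). DP lay above both other stages, with replicate 3 at 3.85 times the next DP library. TIMP1 rose by 1.81 ± 0.47 (SE, adjusted p = 0.00873) in DP versus LL, which was 1.15 without DP replicate 3 and still called, and was lower in LG versus DP (-2.27 ± 0.47, SE, adjusted p = 0.00497). LG and LL overlapped. TIMP4, the member of the family with the lowest level, was 5.24, 3.796 and 3.88 (LL), 2.93, 7.11 and 2.12 (DP) and 2.14, 2.48 and 2.39 (LG). Its log2 fold changes were -0.19, -0.66 and -0.48 in DP versus LL, LG versus LL and LG versus DP, none of them called.

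The 2 gelatinases, which cut denatured collagen and the type IV collagen of basement membranes, had different patterns. MMP2, made mainly by stromal cells in most tissues, was 11.2, 11.4 and 17.8 (LL), 45.2, 143 and 114 (DP) and 16.5, 22.5 and 19.3 (LG) (gene 102184364, chromosome 18, 25127061 to 25154299). All DP libraries were above all others, and the DP mean was 7.47 times the LL mean. MMP2 rose by 2.69 ± 0.38 (SE, adjusted p = 0.00031) in DP versus LL and its log2 fold change in LG versus DP was -2.17 ± 0.38 (SE, adjusted p = 0.0021). LG and LL overlapped, with a difference of 0.51 ± 0.38 (SE, adjusted p = 0.283).

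MMP9, a product of neutrophils and macrophages as well as of epithelium, was 1.65, 2.19 and 7.99 (LL), 1.64, 2.93 and 1.904 (DP) and 0.209, 0.0324 and 0.0304 (LG) (gene 102168469, chromosome 13, 74256206 to 74263438). LL and DP overlapped, and every LG library was below every LL and DP library. MMP9 fell in LG, with a log2 fold change of -1.96 ± 0.39 (SE, adjusted p = 0.00265) against LL and -1.52 ± 0.39 (SE, adjusted p = 0.0141) against DP, where the second call was lost without DP replicate 2 (-1.31, adjusted p = 0.0523). The within-library ratio of MMP9 to MMP2, which does not depend on the scaling, was 0.147 to 0.448 (LL), 0.0167 to 0.0362 (DP) and 0.00144 to 0.0127 (LG). These ranges do not overlap. The neutrophil markers CSF3R, CXCR2, S100A8 and S100A9 summed to 8.37 to 23.1 scaled FPKM in LL, 10.3 to 38.0 (DP) and 4.67 to 12.0 (LG), and the macrophage markers CD68, CSF1R, CD14, MRC1 and AIF1 to 37.5 to 47.2, 80.1 to 98.9 and 28.4 to 30.6. The neutrophil markers did not move together. CSF3R, the receptor of the neutrophil growth factor G-CSF, was at most 0.416 in LL, 0.659 to 1.34 (DP) and 3.06 to 4.56 (LG), and was higher in LG versus LL (1.88) and DP (1.26), also with any library left out. CXCR2 was lower in LG versus LL (-1.52), which was lost without LL replicate 1 (-0.99). S100A9 was lower in LG versus LL (-1.35) and DP (-1.95), of which the first was lost without LL replicate 1 or 3, DP replicate 2 or LG replicate 2 or 3 (-0.98 to -1.34) and the second without LG replicate 3 (-1.58). S100A8 was not called, and was called lower in LG versus DP without DP replicate 3 (-2.05) or LG replicate 1 (-1.93) and against LL without DP replicate 1 (-1.31), DP replicate 3 (-1.31) or LG replicate 1 (-1.75). None of these markers was at 0 throughout, and their part in the level of MMP9 was not tested.

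Of the membrane-anchored MMPs, MMP14 and MMP16 had their highest levels in DP, MMP24 fell in LG versus DP, and MMP23B rose in DP and in LG. MMP14 (MT1-MMP), the activator of MMP2 and itself a collagenase, was 14.6, 23.2 and 32.4 (LL), 60.2, 95.4 and 60.5 (DP) and 22.7, 21.9 and 22.6 (LG) (gene 100861171, chromosome 10, 79446180 to 79454624). All DP libraries were above all LL and LG libraries, and the LG libraries lay within the LL range. Its log2 fold change was 1.62 ± 0.28 (SE, adjusted p = 0.00101) in DP versus LL and -1.61 ± 0.28 (SE, adjusted p = 0.00203) in LG versus DP. The deposited values of MMP14 differed from those of the neighbouring gene MRPL52, a mitochondrial ribosomal protein gene that does not overlap it, by only 1.34 to 1.84 FPKM in every library, so that MMP14 was not measured separately from MRPL52.

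MMP24 (MT5-MMP), best known from neurons, was 4.26, 3.905 and 5.301 (LL), 6.68, 7.07 and 10.7 (DP) and 2.898, 3.19 and 2.31 (LG). Its values likewise differed from those of the neighbouring PROCR, the endothelial protein C receptor, by 1.0 to 1.5 FPKM, and were not a separate measurement. MMP24 was lower in LG versus DP (-1.25 ± 0.18, SE, adjusted p = 0.00085) and not called in DP versus LL (0.72). Left out with ADAM17, for which the same held, these genes leave 39 tested genes, of which 20 were higher and 0 lower in DP versus LL and 0 higher and 18 lower in LG versus DP. With all genes of this kind left out, 1940 of 13194 genes were higher and 1110 lower in DP versus LL. In LG versus DP 824 were higher and 933 lower.

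MMP16 (MT3-MMP) was 0.402, 0.380 and 0.562 (LL), 1.66, 0.805 and 4.69 (DP) and 0.376, 0.365 and 0.297 (LG). DP did not overlap LL or LG, but MMP16 passed the filter through DP libraries alone, so that before scaling it had to be higher there. Replicate 3 was 2.83 times the next DP library. Its log2 fold changes of 1.06 ± 0.33 (SE, adjusted p = 0.0221) in DP versus LL and -1.16 ± 0.33 (SE, adjusted p = 0.0235) in LG versus DP were both called and both lost without DP replicate 3 (0.58 and -0.68). The first was also lost without LL replicate 1 (1.07) or 2 (1.05), and the second without LG replicate 1 (-1.17), 2 (-1.16) or 3 (-1.12). Under quantile normalization both were lost (0.44 and -0.97), and the first also in a fit of the LL and DP libraries alone (1.01, adjusted p = 0.0505).

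MMP23B, an MMP without the usual hemopexin domain, was 0.382, 0 and 0.264 (LL), 2.43, 2.72 and 7.24 (DP) and 4.58, 6.49 and 3.58 (LG). It was at most 0.382 in LL and at least 2.43 in every DP and LG library, and it passed the filter without any LL library. MMP23B rose by 1.97 ± 0.32 (SE, adjusted p = 0.000741) in DP versus LL and 2.26 ± 0.32 (SE, adjusted p = 0.000435) in LG versus LL, the largest log2 fold change of the 42 genes in that comparison, and DP and LG overlapped. MMP15 (MT2-MMP) was 3.62, 4.99 and 2.99 (LL), 2.83, 1.36 and 2.06 (DP) and 4.56, 7.53 and 3.33 (LG). Its lowest levels were in DP, below every LL and LG library. It was not called in LG versus DP (0.96 ± 0.27, SE, adjusted p = 0.0205), and was called without DP replicate 1 (1.12), LG replicate 1 (1.002) or LG replicate 3 (1.18). MMP25, a GPI-anchored protease of leukocytes, stayed between 0.289 and 1.61 in all libraries and was not called.

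**Figure D2:**
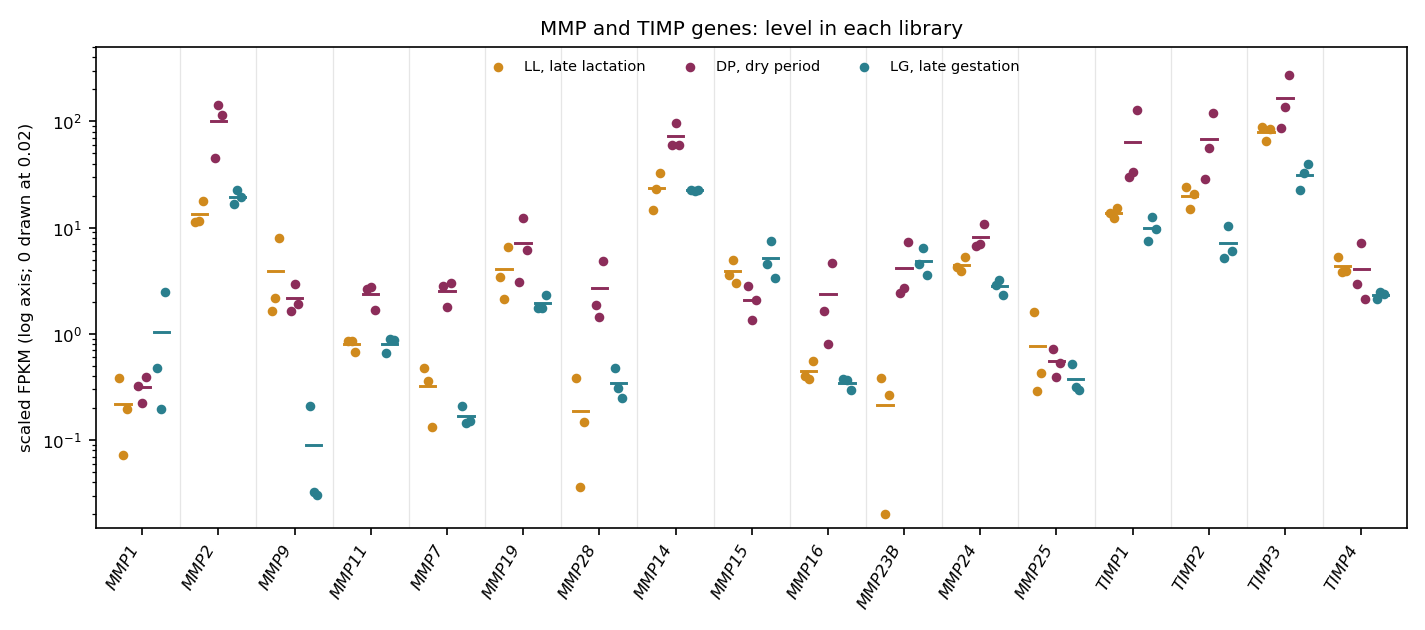
Scaled FPKM of the 13 tested MMP and 4 TIMP genes in each library on a log axis, with values of 0 drawn at 0.02; points are libraries and bars are the means of 3. For MMP2, MMP7, MMP14 and TIMP1 all DP points lie above all LL and LG points, and for MMP9 all LG points lie below the others. MMP7 passed the filter through DP libraries alone and MMP9 without any LG library.

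Of the other secreted MMPs, MMP7 and MMP28 rose in DP and fell in LG. MMP7 (matrilysin), a small MMP of glandular epithelium without a hemopexin domain, was 0.482, 0.362 and 0.132 (LL), 2.82, 1.78 and 3.01 (DP) and 0.209, 0.146 and 0.152 (LG). DP did not overlap the other stages. Its log2 fold change was 1.41 ± 0.17 (SE, adjusted p = 0.00012) in DP versus LL and -1.58 ± 0.17 (SE, adjusted p = 0.000197) in LG versus DP. MMP7 passed the filter through DP libraries alone, so that before scaling it had to be higher there. Under quantile normalization its rise was 0.99 and not called.

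MMP28 (epilysin), which is known from epithelium, was 0.382, 0.0362 and 0.149 (LL), 1.88, 1.45 and 4.801 (DP) and 0.476, 0.308 and 0.251 (LG). It was higher in DP versus LL (1.55 ± 0.28, SE, adjusted p = 0.00152) and lower in LG versus DP (-1.36 ± 0.28, SE, adjusted p = 0.00536), and without DP replicate 3 the fall was not called (-0.96). MMP19, found in many normal tissues, was 3.46, 2.15 and 6.59 (LL), 3.05, 12.2 and 6.18 (DP) and 1.76, 1.77 and 2.31 (LG). LG lay below DP without overlap, and LL overlapped both. MMP19 fell in LG versus DP (-1.31 ± 0.41, SE, adjusted p = 0.034), a call that was lost without DP replicate 2 (-0.86), DP replicate 3 (-1.30) or LG replicate 1 (-1.26), 2 (-1.26) or 3 (-1.39). MMP19 also lost this call under quantile normalization (-1.27) and without the filter (-1.31, adjusted p = 0.0632). In DP versus LL its value of 0.62 was not called, but was 1.03 and called without DP replicate 1.

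MMP11 (stromelysin 3), a furin-activated protease of fibroblasts, was 0.864, 0.850 and 0.677 (LL), 2.66, 2.74 and 1.67 (DP) and 0.660, 0.900 and 0.875 (LG). DP was above LL and LG in every library, but the log2 fold changes of 0.89 ± 0.15 (SE, adjusted p = 0.00099) and -0.88 ± 0.15 (SE, adjusted p = 0.00205) in DP versus LL and LG versus DP were under 1 in size. Without DP replicate 3 they were 1.02 and -1.01 and both were called.

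The classic collagenases and stromelysins had low values in most libraries. MMP1 was 0.382, 0.0723 and 0.198 (LL), 0.321, 0.222 and 0.396 (DP) and 0.476, 0.195 and 2.47 (LG), with LG replicate 3 above all others, and no comparison called it. MMP8 and MMP13, the other collagenases, did not exceed 0.29 FPKM as deposited in any library. MMP3 (stromelysin 1), a protease linked to mammary branching, reached 1.59 FPKM in DP replicate 2 and was at most 0.24 FPKM in the other 8 libraries. MMP12, the elastase of macrophages, reached 1.20 FPKM in DP replicate 1 and was between 0.14 and 0.48 FPKM elsewhere. These genes lie in 1 cluster with MMP7, MMP20 and MMP27 on chromosome 15, from 76313453 to 76775844 in the coordinates of the deposited table, which names no genome build. Of the 8 genes of this cluster only MMP7 and MMP1 passed the filter.

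Of the ADAMTS proteases that cut versican and aggrecan, ADAMTS4, ADAMTS5, ADAMTS9 and ADAMTS15 rose in DP versus LL and ADAMTS1 did not reach the threshold. ADAMTS4 was 0.181, 0.470 and 0.793 (LL), 3.54, 2.98 and 29.1 (DP) and 0.351, 0.413 and 0.282 (LG) (gene 102176281, chromosome 3, 111811152 to 111819330). Replicate 3 was 8.23 times the next DP library, and the other 2 DP libraries were still above all LL and LG libraries. ADAMTS4 rose by 2.48 ± 0.63 (SE, adjusted p = 0.00809) in DP versus LL and its log2 fold change in LG versus DP was -2.60 ± 0.63 (SE, adjusted p = 0.0109). Without DP replicate 3 these were 1.51 and -1.62, and both were called.

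ADAMTS5 was 0.201, 0.235 and 0 (LL), 3.63, 3.93 and 2.501 (DP) and 1.09, 0.916 and 1.19 (LG) (gene 102172097, chromosome 1, 7818403 to 7871968). The stages did not overlap, with LL lowest and DP highest. It rose by 1.92 ± 0.16 (SE, adjusted p = 1.38e-05) in DP versus LL, and the difference of 0.86 ± 0.16 (SE, adjusted p = 0.00183) in LG versus LL was under the fold threshold at a pseudocount of 1 and 2.43 at a pseudocount of 0.1. The fall in LG versus DP (-1.06 ± 0.16, SE, adjusted p = 0.000933) was not called without DP replicate 1 (-0.99) or 2 (-0.95). ADAMTS1, whose gene lies beside ADAMTS5 on chromosome 1, was 3.96, 4.16 and 4.69 (LL), 6.94, 6.51 and 13.3 (DP) and 2.41, 4.15 and 4.57 (LG). DP was above both other stages in every library. ADAMTS1 was lower in LG versus DP (-1.04 ± 0.26, SE, adjusted p = 0.0125), a call lost without DP replicate 3 (-0.73) or LG replicate 1 (-0.82), and not called in DP versus LL (0.85) except without DP replicate 2 (1.01).

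ADAMTS9 and ADAMTS15 were raised over LL in both other stages. ADAMTS9, made by many cell types, was 3.56, 4.103 and 4.18 (LL), 8.79, 9.11 and 18.4 (DP) and 15.3, 8.92 and 17.4 (LG), with DP and LG overlapping each other and both above LL. Its log2 fold change was 1.33 ± 0.29 (SE, adjusted p = 0.004) in DP versus LL and 1.54 ± 0.29 (SE, adjusted p = 0.00217) in LG versus LL. ADAMTS15 was 0.342, 0.398 and 0.0661 (LL), 3.42, 3.18 and 9.87 (DP) and 1.68, 2.44 and 2.397 (LG), and the stages did not overlap. It rose by 2.22 ± 0.32 (SE, adjusted p = 0.000387) in DP and 1.32 ± 0.32 (SE, adjusted p = 0.00759) in LG versus LL, the latter 1.07 and not called under quantile normalization. Its value of -0.89 ± 0.32 (SE, adjusted p = 0.0562) in LG versus DP was not called, and was -1.08 and -1.12 and called without DP replicate 1 or 2. Versican (VCAN), the main substrate of this group in loose connective tissue, was 4.601, 2.77 and 7.498 (LL), 10.05, 24.9 and 69.8 (DP) and 5.26, 5.25 and 7.15 (LG). It rose by 2.27 ± 0.56 (SE, adjusted p = 0.00722) in DP versus LL and fell in LG versus DP (-1.996 ± 0.56, SE, adjusted p = 0.0216), and the latter call was lost without LG replicate 1 (-1.93) or 2 (-1.93).

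ADAMTS2, the protease that removes the amino-terminal propeptide of the fibrillar collagens, was 0.181, 0.181 and 0.314 (LL), 2.71, 5.13 and 16.4 (DP) and 2.55, 3.96 and 3.36 (LG) (gene 102182397, chromosome 7, 106529575 to 106789969). LL was at most 0.314 and every DP and LG library at least 2.55, and the gene passed the filter without any LL library. ADAMTS2 rose by 2.58 ± 0.44 (SE, adjusted p = 0.00106) in DP and 1.80 ± 0.44 (SE, adjusted p = 0.00819) in LG versus LL. DP and LG overlapped (-0.79 ± 0.44, SE, adjusted p = 0.195), and without DP replicate 1 the gene was lower in LG versus DP (-1.27). Its relative ADAMTS3 went from 0.199 to 0.281 (LL) to 0.739 to 1.29 (DP) and 0.655 to 2.71 (LG), and was not called, with 0.74 ± 0.27 (SE, adjusted p = 0.0386) and 0.86 ± 0.27 (SE, adjusted p = 0.0235) against LL. The substrates COL1A1 and COL3A1 also rose in both stages, with log2 fold changes of 2.37 and 2.16 in DP versus LL and of 2.12 and 2.42 in LG versus LL. The call of COL1A1 in LG versus LL was lost without LL replicate 1 (1.96), LL replicate 2 (2.04) or LG replicate 2 (1.71).

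ADAMTS10 and ADAMTS17, both tied to the fibrillin microfibrils of elastic tissue, differed in the stage of their highest level. ADAMTS10 was 0.201, 0.108 and 0.0826 (LL), 3.59, 2.64 and 3.32 (DP) and 0.994, 0.900 and 1.04 (LG), and the stages did not overlap. It rose by 1.88 ± 0.12 (SE, adjusted p = 4.9e-06) in DP versus LL and fell in LG versus DP (-1.07 ± 0.12, SE, adjusted p = 0.000277), where the call was lost without DP replicate 1 (-0.98). ADAMTS17 was 0, 0 and 0.562 (LL), 0.425, 0.312 and 2.01 (DP) and 1.45, 3.13 and 2.06 (LG). It was listed at 0 in LL replicates 1 and 2 and rose in LG versus LL (1.44 ± 0.33, SE, adjusted p = 0.00586), with every LG library above every LL library. In LG versus DP the value of 0.82 was not called, and was 1.17 and called without DP replicate 3. ADAMTS7, ADAMTS12 and ADAMTS18 were tested and not called, with log2 fold changes between -0.60 and 0.47 over the 3 comparisons.

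ADAMTS-like proteins lack the protease domain and sit in the matrix. ADAMTSL3 was 0.482, 0 and 0.0330 (LL), 1.74, 2.48 and 5.06 (DP) and 0.109, 0.535 and 0.137 (LG), with DP above both other stages in every library. It rose by 1.75 ± 0.29 (SE, adjusted p = 0.000812) in DP versus LL and fell in LG versus DP (-1.63 ± 0.29, SE, adjusted p = 0.00226). ADAMTSL4, a fibrillin-binding protein, was 2.83, 3.001 and 4.95 (LL), 5.896, 8.43 and 14.01 (DP) and 0.935, 3.17 and 1.62 (LG), again without overlap between DP and the others. Its rise of 1.14 ± 0.34 (SE, adjusted p = 0.0166) in DP versus LL was not called without DP replicate 3 (0.83), LL replicate 1 (1.02) or LL replicate 2 (1.05), while the fall in LG versus DP was -1.84 ± 0.34 (SE, adjusted p = 0.00272). ADAMTSL2 and ADAMTSL5 were not called, and ADAMTSL2 reached 4.80 in DP replicate 3 against 0.674 or less in the other 8 libraries.

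ADAM10 and ADAM17 had the highest means of the ADAM genes at every stage, and no comparison called either. ADAM10, which sheds Notch receptors and E-cadherin, was 12.7, 11.8 and 12.9 (LL), 14.9, 14.3 and 13.6 (DP) and 27.04, 23.1 and 25.6 (LG) (gene 102172903, chromosome 10, 51485832 to 51622609). All LG libraries were above all DP and LL libraries, and the LG mean was 2.02 times the LL mean. The difference of 0.96 ± 0.12 (SE, adjusted p = 0.00022) in LG versus LL and of 0.78 ± 0.12 (SE, adjusted p = 0.00117) in LG versus DP had small adjusted p-values but were under 1 on the log2 scale. The first was 1.02 and called without LG replicate 2. ADAM17, the enzyme that releases TNF and several ligands of the EGF receptor, amphiregulin (AREG) among them, was 16.03, 17.4 and 16.96 (LL), 12.6, 14.1 and 12.8 (DP) and 14.2, 12.7 and 11.7 (LG) (gene 102188327, chromosome 11, 87526593 to 87569419).

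ADAM17 was highest in LL, where no library overlapped the others, with -0.33 ± 0.12 (SE, adjusted p = 0.0446) in DP and -0.36 ± 0.12 (SE, adjusted p = 0.0328) in LG versus LL. Its deposited values followed those of LOC102187409, an overlapping gene, at a distance of 2.67 to 3.17 FPKM, and cannot be told apart from it. The ratio of ADAM10 to ADAM17 within a library was 0.679 to 0.794 (LL), 1.01 to 1.18 (DP) and 1.82 to 2.19 (LG), ranges that do not overlap. AREG was 5.38, 4.34 and 2.96 (LL), 17.7, 8.17 and 1.195 (DP) and 0.518, 0.203 and 0.921 (LG), lowest in LG, and was called lower there against LL (-1.76, adjusted p = 0.0393) and DP (-2.25, adjusted p = 0.0198). The first of these calls was lost without any of the 3 LL or 3 LG libraries or without DP replicate 2 (-1.57 to -1.996), and the second without DP replicate 2 (-2.05), LG replicate 1 (-2.23) or LG replicate 2 (-2.07). AREG was called higher in DP versus LL without DP replicate 3 (1.35).

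5 other ADAM genes, which stood at a low level in LL, rose in DP. Of these, ADAM8, ADAM19 and ADAM33 passed the filter without any LL library, so their low LL values as deposited were a condition of being tested. ADAM8, a protease of leukocytes, was 0.121, 0.163 and 0.182 (LL), 2.37, 1.603 and 2.71 (DP) and 0.309, 0.357 and 0.403 (LG), and ADAM33, of mesenchymal cells, was 0.161, 0.145 and 0.149 (LL), 3.33, 2.28 and 3.43 (DP) and 0.802, 0.981 and 0.997 (LG). In both genes DP was highest and LL lowest with no overlap among the stages. ADAM8 rose by 1.47 ± 0.15 (SE, adjusted p = 4.3e-05) in DP versus LL and fell in LG versus DP (-1.24 ± 0.15, SE, adjusted p = 0.00032). ADAM33 rose by 1.79 ± 0.14 (SE, adjusted p = 1.05e-05) and then fell (-1.05 ± 0.14, SE, adjusted p = 0.000519), the fall not being called without DP replicate 1 (-0.96), DP replicate 3 (-0.95) or LG replicate 1 (-0.99).

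ADAM28, known from lymphocytes, was 0.542, 0.651 and 1.09 (LL), 6.93, 1.88 and 4.68 (DP) and 0.818, 0.0324 and 0.183 (LG). It rose by 1.54 ± 0.35 (SE, adjusted p = 0.00451) in DP versus LL and fell in LG versus DP (-1.96 ± 0.35, SE, adjusted p = 0.00232). ADAM19 and ADAM12, the meltrins of mesenchymal tissue, were raised over LL in both stages. ADAM19 was 0.161, 0.145 and 0.281 (LL), 2.98, 3.03 and 2.62 (DP) and 1.57, 1.69 and 1.45 (LG), without overlap among the stages, and rose by 1.70 ± 0.11 (SE, adjusted p = 4.63e-06) in DP and 1.11 ± 0.11 (SE, adjusted p = 6.01e-05) in LG versus LL, the latter 0.99 in a fit of the LL and LG libraries alone. ADAM12 was 0.301, 0.398 and 0.826 (LL), 1.08, 1.57 and 4.35 (DP) and 2.87, 3.29 and 3.33 (LG) and rose by 1.48 ± 0.30 (SE, adjusted p = 0.00309) in LG versus LL. Its rise of 1.03 ± 0.30 (SE, adjusted p = 0.0155) in DP was not called without DP replicate 3 (0.61) or LL replicate 1 (0.96). Nor was it called under quantile normalization (0.52) or in a fit of the LL and DP libraries alone (0.99). The widely expressed ADAM9 and ADAM15 ranged from 5.13 to 11.1 and from 5.59 to 16.5 and were not called.

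**Figure D3:**
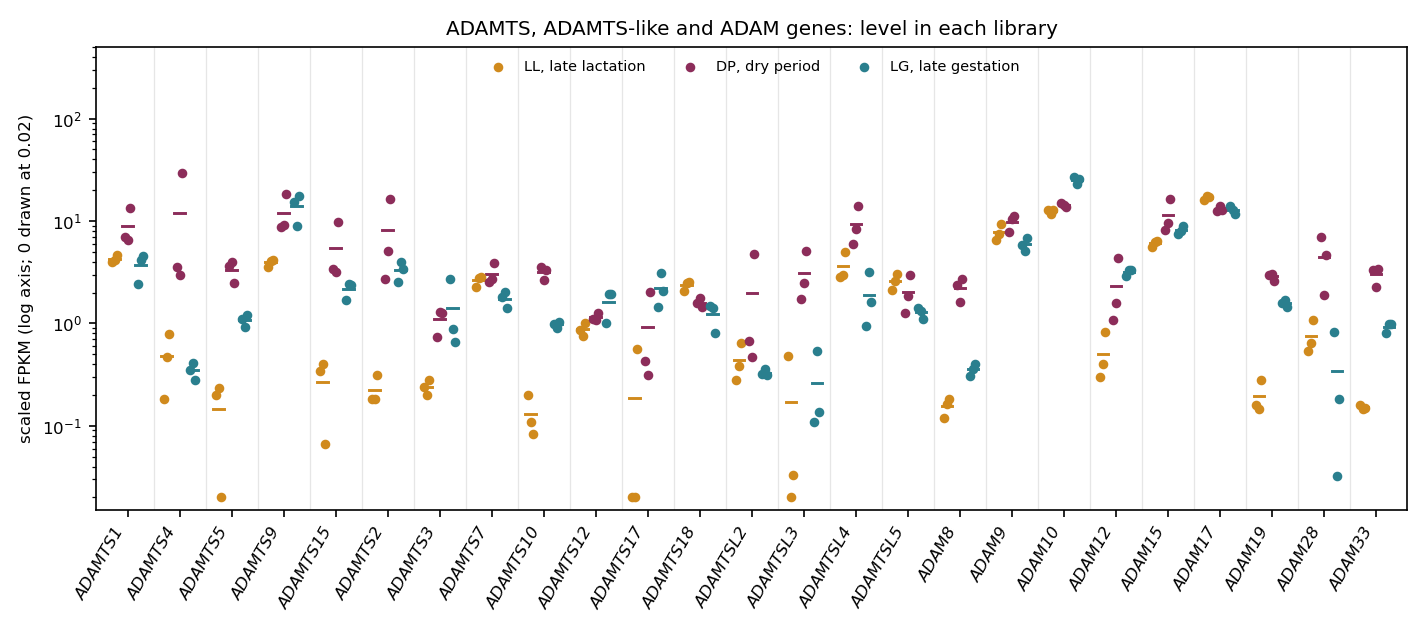
Scaled FPKM of the 12 tested ADAMTS, 4 ADAMTS-like and 9 ADAM genes in each library on a log axis, with values of 0 drawn at 0.02; points are libraries and bars are the means of 3. ADAM10 and ADAM17 sit at 11.7 to 27.04 in every library, whereas ADAMTS5, ADAMTS10, ADAM19 and ADAM33 are at 0.281 or less in LL and at 0.802 or more in every other library. ADAMTS5, ADAMTS10, ADAM19 and ADAM33 passed the filter without any LL library, so low LL values as deposited were a condition of their being tested.

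The balance of inhibitor to protease mRNA can be read within a library without any scaling. The summed FPKM of TIMP1 to TIMP4 over that of the tested MMP genes was 1.65 to 3.03 in LL (mean 2.205 ± 0.73, SD, n = 3), 0.849 to 2.39 in DP (1.45 ± 0.83, SD, n = 3) and 0.669 to 0.996 in LG (0.848 ± 0.166, SD, n = 3). LL and LG did not overlap, and DP overlapped both, with replicate 3 at 2.39 and the other 2 DP libraries at 1.11 and 0.849. Without MMP14 and MMP24 the ratio was 4.30 in LL, 2.39 in DP and 1.47 in LG, in the same order. As a score over chosen genes it was given no test.

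The parts of that ratio moved by different amounts. Summed MMP levels were 43.3 to 75.5 scaled FPKM in LL, 132 to 272 (DP) and 56.0 to 65.7 (LG), and summed TIMP levels were 96.4 to 131, 147 to 521 and 37.4 to 57.9. Between LL and LG the MMP sums overlapped and the TIMP sums did not. The share of MMP2 in the MMP sum was 22.9% to 25.9% (LL), 34.2% to 52.5% (DP) and 29.5% to 34.3% (LG). Without MMP14 and MMP24, which were not separate measurements, it was 45.9% to 50.2% (LL), 69.3% to 84.3% (DP) and 54.4% to 58.6% (LG). MMP2 and MMP14 together held 65.2% ± 5.1 (SD, n = 3), 82.5% ± 4.4 and 70.1% ± 2.4. The ratio of TIMP2 to MMP2 was 1.17 to 2.14 (LL), 0.389 to 1.05 (DP) and 0.309 to 0.459 (LG). ADAM10 and ADAM17 together held 65.3% ± 3.1 (SD, n = 3) of the ADAM sum in LL, 43.6% ± 6.1 in DP and 65.1% ± 2.5 in LG.

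**Figure D4:**
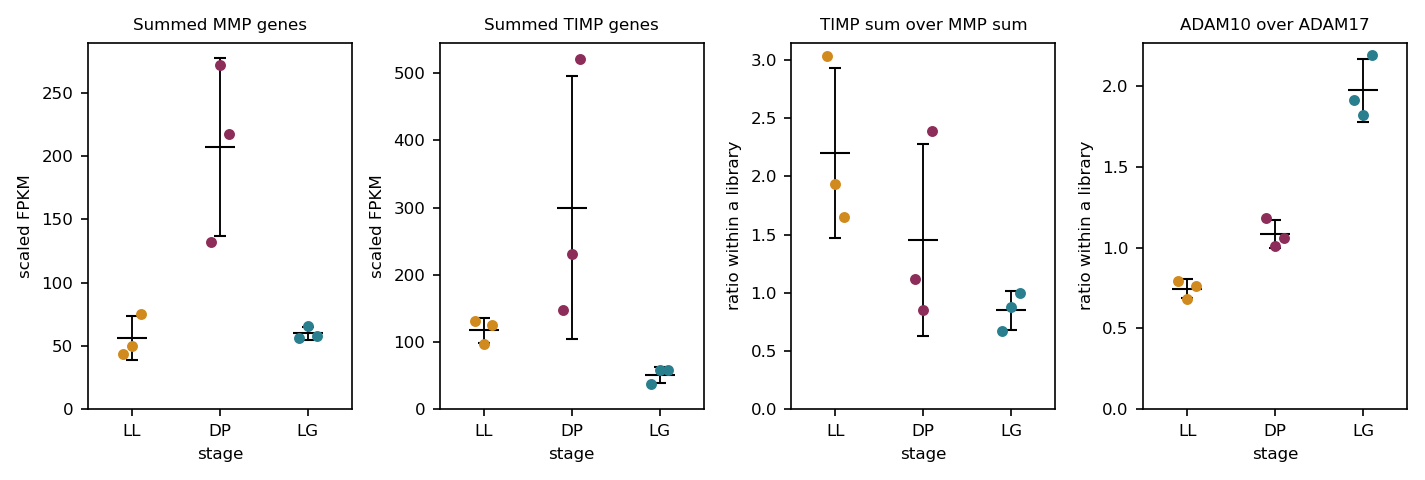
Summed scaled FPKM of the tested MMP genes and of the 4 TIMP genes, the ratio of the TIMP sum to the MMP sum, and the ratio of ADAM10 to ADAM17, by stage; points are libraries, the long bar is the mean and the error bars are the SD of 3 libraries. The TIMP to MMP ratio is 1.65 to 3.03 (LL) and 0.669 to 0.996 (LG), and the ADAM10 to ADAM17 ratio is 0.679 to 0.794, 1.01 to 1.18 and 1.82 to 2.19 across the stages LL, DP and LG.

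DP replicate 3 stood apart in these families. It was over 2 times both other DP libraries in 14 of the 42 genes (33.3%), beside 3.42% of all genes tested, whereas DP replicates 1 and 2 were so in 0 and 1 of the 42, beside 2.76% and 0.782% of all genes. Of the LL libraries, replicate 3 was the highest in 26 of the 42 genes (61.9%) and replicate 2 in 4 (9.52%), beside 40.7% and 30.5% of all genes, and DP replicate 3 was likewise the highest DP library in 26, beside 38.7%. The 14 genes were ADAMTS4, ADAMTSL2, ADAMTS17, TIMP1, ADAMTS2, ADAMTS15, MMP16, ADAM12, MMP23B, MMP28, TIMP2, ADAMTSL3, ADAMTS9 and TIMP3. The fibroblast markers PDGFRA, PDGFRB, COL1A1, DCN, LUM and THY1 summed to 321, 538 and 1028 scaled FPKM in the DP libraries, the highest being replicate 3, to 132 to 197 (LL) and to 172 to 296 (LG). 5 of the 6 were called higher in DP versus LL and 4 lower in LG versus DP. THY1 was not called lower without DP replicate 3 (-0.96), and LUM was called in both without DP replicate 1 (1.59 and -1.57).

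**Figure D5:**
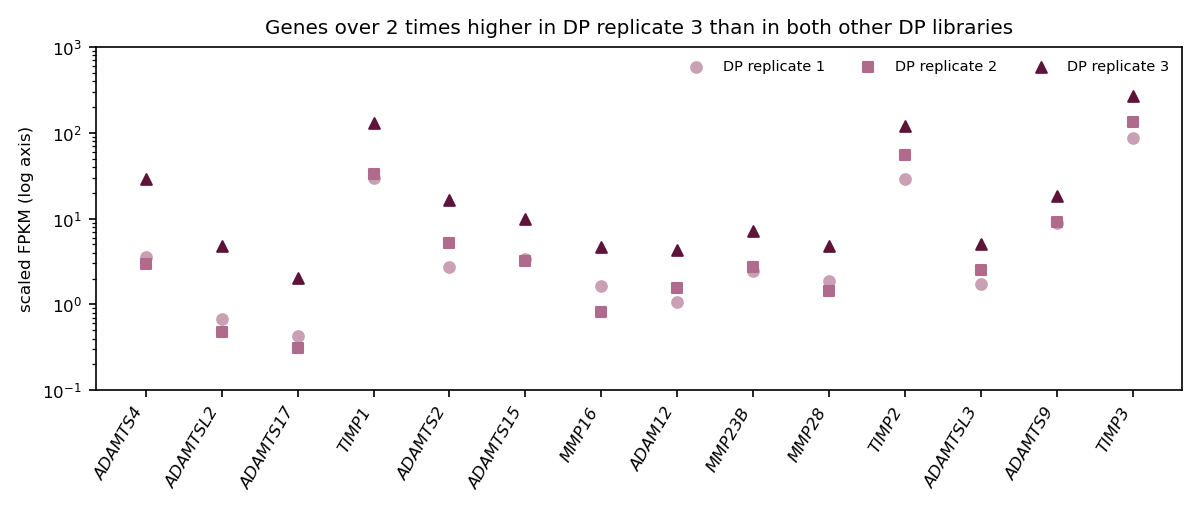
Scaled FPKM on a log axis of the 14 genes that were over 2 times higher in DP replicate 3 than in both other DP libraries; each symbol is 1 DP library. The gap is widest in ADAMTS4, where replicate 3 is 8.23 times the next library, and narrowest in TIMP3, where it is 2.003 times.

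Markers of some other cell types also moved with the stages. Summed T cell markers (CD3D, CD3E, CD3G and CD2) were 5.24 to 6.07 (LL), 15.9 to 50.6 (DP) and 12.4 to 18.9 (LG), and all 4 were higher in DP versus LL, CD3E not without DP replicate 1 (0.93). PTPRC, carried by all leukocytes, was 5.35 to 7.19, 13.2 to 36.7 and 6.41 to 10.5. Of the 5 macrophage markers, 2 were higher in DP versus LL and all 5 lower in LG versus DP. The calls of MRC1 were lost in both comparisons without DP replicate 3 (0.69 and -0.71) or LL replicate 2, the first also without LL replicate 1 and the second without any LG library, that of CSF1R in DP versus LL without DP replicate 1 (0.93) and that of AIF1 in LG versus DP without DP replicate 3, LG replicate 2 or LG replicate 3 (-0.93 to -0.996). In DP versus LL, CD14 was called higher without DP replicate 1 (1.13) and CD68 without DP replicate 3 (1.22). Endothelial markers other than PECAM1, whose values followed those of the neighbouring LOC102179516, summed to 32.9 to 40.3, 33.4 to 81.6 and 29.6 to 38.1, and with PECAM1 to 93.2 to 125, 112 to 160 and 58.1 to 79.9. Among them CDH5 and KDR had log2 fold changes of -0.05 and 0.70 in LG versus LL, and TEK was lower in LG versus DP (-1.19), which was lost without DP replicate 3 (-0.98). The luminal markers KRT8, KRT18, KRT19, EPCAM and CDH1 summed to 343 to 431, 243 to 478 and 324 to 393, and none of them was called, except KRT18 in LG versus DP without DP replicate 3 (-1.10). ELF5, a transcription factor of luminal and milk-secreting cells, was 440 to 676, 25.8 to 44.2 and 408 to 498, and was lower in DP versus LL (-4.19) and higher in LG versus DP (3.82). Myoepithelial markers summed to 180 to 234, 136 to 453 and 225 to 304, and without KRT5 and KRT14, which followed neighbouring genes, to 72.9 to 100.4, 52.9 to 200.05 and 80.3 to 93.1. Among them TP63 was 0.163 to 0.382, 2.40 to 2.53 and 2.45 to 3.36, higher in DP (1.47) and LG (1.60) versus LL. OXTR was higher in LG versus LL (2.11) and DP (1.41). These calls held with any library left out. ACTA2 and MYH11 were not called, and KRT5 and KRT14 only with 1 DP library left out. Adipocyte markers summed to 2.71 to 3.72, 2.57 to 20.4 and 1.14 to 1.69. The highest sum was DP replicate 1, where ADIPOQ was 12.6 against 0.548 and 1.20 in DP replicates 2 and 3. ADIPOQ and CIDEC, the adipocyte markers tested, were not called, except ADIPOQ without DP replicate 2, higher in DP versus LL (2.03) and lower in LG versus DP (-2.11). No marker of these lists was at 0 in every library. The part of these cell types in the levels of the proteases and inhibitors was not tested, and in whole tissue more cells of a type and more RNA per cell cannot be told apart.

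Of 49 genes listed as inhibitors, activators, carriers, ligands, substrates and related proteases, 46 were in the table and 40 were tested. The list was chosen with earlier results of these data known, so its counts are a description and not an independent test. COL1A1 and VWF are also on the marker lists. In DP versus LL 16 were higher and 1 lower, beside 13.8% and 8.79% of all genes. In LG versus LL 5 were higher and 4 lower, beside 10.7% and 6.61%, which is near that background, and in LG versus DP 1 and 10, beside 6.37% and 6.88%. Leaving out 1 library gave 10 to 17 higher in DP versus LL, with 10 without LL replicate 2 and 11 without LL replicate 1 or DP replicate 3, and 6 to 13 lower in LG versus DP, with 6 without LG replicate 1.

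Of the 6 other tested genes that were listed under inhibitors and clearance, 5 were higher in DP versus LL, beside 13.8% of all genes. The same 5 were lower in LG versus DP, beside 6.88% of all genes. RECK, a membrane-anchored inhibitor of MMP2, MMP9 and MMP14, was 1.67, 2.01 and 2.71 (LL), 4.41, 4.47 and 12.5 (DP) and 1.47, 2.08 and 2.504 (LG). It rose by 1.25 ± 0.32 (SE, adjusted p = 0.00918) in DP versus LL and fell in LG versus DP (-1.30 ± 0.32, SE, adjusted p = 0.0125), and without DP replicate 3 neither was called (0.80 and -0.85). LRP1, the receptor that clears several MMPs, ADAMTS proteases and TIMP complexes from the cell surface, was 7.69, 6.89 and 12.6 (LL), 21.6, 23.2 and 58.8 (DP) and 7.92, 10.1 and 8.01 (LG). Both its rise in DP versus LL (1.71 ± 0.35, SE, adjusted p = 0.0029) and its fall in LG versus DP (-1.73 ± 0.35, SE, adjusted p = 0.00482) were called with any library left out.

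TFPI2, a serine protease inhibitor of the matrix, and SPOCK1 and SPOCK2, matrix proteoglycans of the testican family, were higher in DP versus LL (1.72, 1.16 and 1.72) and lower in LG versus DP (-2.14, -1.75 and -1.18). The rise of TFPI2 was lost without DP replicate 3 (0.99) or LL replicate 2 (1.52), that of SPOCK1 without DP replicate 1 (0.72), and the fall of SPOCK2 without DP replicate 1 (-0.78) or LG replicate 1 (-1.02). PAPLN was not called in any comparison, and its values were not a separate measurement. A2M was not analysed here.

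Among the activators, FURIN, which removes the precursor part of ADAMs, ADAMTS proteases and membrane-type MMPs, was 8.64, 10.6 and 9.1001 (LL), 13.8, 12.9 and 14.01 (DP) and 5.68, 8.69 and 8.49 (LG) and was not called, with log2 fold changes of 0.49, -0.29 and -0.78 in DP versus LL, LG versus LL and LG versus DP. BSG (basigin), an inducer of MMPs, was highest in LL, with 549, 566 and 318 (LL), 81.1, 88.1 and 85.6 (DP) and 178, 169 and 146 (LG). It was lower in DP (-2.43 ± 0.22, SE, adjusted p = 2.67e-05) and in LG (-1.49 ± 0.22, SE, adjusted p = 0.000624) than in LL, but its values followed those of the neighbouring LOC108636372. Without LG replicate 3 it was also called higher in LG versus DP (1.02). PCSK6 rose in LG versus LL (1.28), and PCSK5 in DP versus LL (1.01). The call of PCSK5 was lost without any LL library, LG replicate 3 or DP replicate 3, in the last case with 0.49, and PCSK5 was called lower in LG versus DP without DP replicate 2 (-1.27).

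Some of the carriers that bring ADAM17 and ADAM10 to the cell surface were called, unlike the enzymes themselves. RHBDF2, a carrier of ADAM17, was 3.34, 3.52 and 3.83 (LL), 2.62, 1.85 and 2.23 (DP) and 4.23, 5.33 and 4.77 (LG), lowest in DP, and was not called (-0.50, 0.34 and 0.84). RHBDF1 was higher in DP versus LL (1.17 ± 0.24, SE, adjusted p = 0.00295), which was lost without DP replicate 3 (0.87), and was called lower in LG versus DP only without DP replicate 1 (-1.002) or 2 (-1.05). Of the tetraspanins that escort ADAM10, TSPAN5 was 0.161, 0.0723 and 0.363 (LL), 2.98, 4.13 and 5.22 (DP) and 1.002, 1.36 and 1.17 (LG) and rose in DP versus LL (2.08 ± 0.17, SE, adjusted p = 1.56e-05) before falling in LG (-1.21 against DP). TSPAN33 was 0.321, 1.01 and 0.0495 (LL), 0.831, 0.652 and 0.334 (DP) and 3.77, 2.72 and 2.32 (LG) and was higher in LG than in both other stages, by 1.47 ± 0.24 (SE, adjusted p = 0.00106) over LL and 1.29 ± 0.24 (SE, adjusted p = 0.00323) over DP. TSPAN14, TSPAN15 and TSPAN17 were not called.

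Of the remaining genes, BTC, a ligand of the EGF receptor, rose in LG versus LL (1.42) and was also called in DP versus LL without DP replicate 3 (1.15). TLL1, a procollagen C-proteinase, and ADAMDEC1, a macrophage protease related to the ADAMs, fell in LG versus LL (-1.39 and -1.70), and ADAMDEC1 was called lower in LG versus DP without LL replicate 2 (-1.15) or DP replicate 3 (-1.53). FN1 (fibronectin) rose in DP versus LL (2.04) and fell in LG versus DP (-1.81). The rise of FN1 was lost without LL replicate 1 (1.70) or 2 (1.95), and its fall without LL replicate 2 (-1.81), DP replicate 3 (-1.07), LG replicate 1 (-1.50) or LG replicate 3 (-1.81).

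The protease CTSK and the procollagen enhancers PCOLCE and PCOLCE2 were called higher in DP versus LL (1.11, 1.27 and 2.0004), CTSK also lower in LG versus DP (-1.73). Each rise was lost when one of several single libraries was left out. That of CTSK was lost when any library other than LL replicate 3 or DP replicate 1 was left out, that of PCOLCE without any LL library or DP replicate 3 (0.75), and that of PCOLCE2 without any LL or LG library or DP replicate 3 (0.87). In LG versus DP, PCOLCE was called lower without DP replicate 1 (-1.59) and PCOLCE2 without DP replicate 1 (-2.44) or 2 (-2.56).

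The 23 genes that were not tested were MMP8, MMP13, MMP3, MMP12, MMP20, MMP27, MMP17, ADAMTS8, ADAMTS20, ADAMTS14, ADAMTS6, ADAMTS13, ADAMTS16, ADAMTS19, ADAMTSL1, ADAM20, ADAM21, ADAM7, ADAM11, ADAM18, ADAM22, ADAM23 and ADAM29. Of these, 17 were below 0.5 FPKM in every library, and ADAM7, ADAM18 and ADAM29, whose products are known from the male reproductive tract, were listed at 0 throughout. ADAMTS6 was 1.03, 0.25 and 1.54 FPKM in DP and 0.15 or less elsewhere, and MMP27 was 0.48, 0.54 and 1.43 FPKM in DP and 0.40 or less elsewhere. None of the 6 ADAM genes whose products lack protease activity was tested, and the highest of them, ADAM22, reached 0.58 FPKM in DP replicate 2.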

How the data were processed

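Mammary gland RNA of 9 Laoshan dairy goats was sequenced by the authors on an Illumina HiSeq instrument from libraries prepared with a TruSeq kit, 1 library per goat. The deposited table has 9 value columns, all used, and names no unit, genome build or depth. Its values were read as FPKM that the authors computed, as in the paper's methods, because they carry decimals and their sums differ between libraries (601250 to 1157015). The submitters' processing notes name FastQC, Trimmomatic, HISAT2, SAMtools and HTSeq, and the paper names StringTie, so how reads were counted is not settled. FPKM hold no read counts, so no count test was run and precision rests on 3 goats per stage. P-values rest on the spread between goats within stages, pooled over the 3 stages and moderated by the spread of other genes. Each gene therefore has the same SE in all 3 comparisons, and a wide spread in DP also enters LG versus LL.

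FPKM were divided by median-ratio factors from 15905 genes above 0 in every library, and log2(value + 1) was fitted in R 4.3.3 by limma 3.58.1 (eBayes with trend) for the 14701 genes that reached 0.5 FPKM in 3 or more libraries, all 9 libraries together, no covariates, Benjamini-Hochberg over all genes. Calls needed a log2 fold change of 1 or more in either direction and an adjusted p under 0.05. Sums, ratios and figures were made in Python 3.11.15. The fit and the search for linked genes were tested on simulated data. The simulation of the fit changed only genes above a set mean level and limited the widest spreads. It therefore does not show how well changes are found in genes of low level or wide spread.

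A gene was taken as linked to a neighbour when its 9 values followed those of 1 of the 8 next genes on the same strand by a straight line, with or without a fixed set of amounts per library found between BAX and FTL, to within 1% of its range. This held for 1511 of 15945 genes with a range of at least 0.5 FPKM, among them MMP14, MMP24 and ADAM17 and the listed genes BSG, PAPLN, TLL2, CSN1S1, KRT5, KRT14 and PECAM1. They were kept in the main fit.

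Genes described with their values were every member called in at least 1 comparison, a fixed list of TIMP, MMP, ADAM and ADAMTS genes whatever their result, and those partner genes that were called or listed. The members and lists were chosen with earlier results of these data known. Coordinates are those of the deposited table. All 65 were found by identifier in RefSeq's ARS1.2 annotation, used for names only. Protein and promoter motifs were not analysed here, and results for some listed genes are not reported here. Alternatives covered scaling, pseudocount, filter, libraries in the fit, replicate block, each library left out, trend, call rule and linked genes.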

Additional observations from a re-analysis of the deposited data

How the results depend on the processing

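Of 51 called gene comparisons among 96 examined, 34 kept their call in every alternative in which they were run, 31 of them in all alternatives. The other 3 were MMP14 in DP versus LL and in LG versus DP and MMP24 in LG versus DP, which were left out with the linked genes. No called comparison changed sign. Without scaling, 32 members were higher in DP versus LL, 16 were higher and 1 lower in LG versus LL, and 8348 and 7043 of all genes were called in these comparisons. Signs that turned without scaling, none of them of a called comparison, were MMP9 (0.51), MMP15 (0.36), ADAM17 (0.99) and TIMP4 (0.91) in DP versus LL, MMP7 (0.046), MMP19 (0.14), MMP16 (0.20), MMP24 (0.37), ADAMTS1 (0.72), ADAMTS4 (0.18), ADAMTSL4 (0.12), ADAM17 (0.73), TIMP1 (0.62) and TIMP4 (0.22) in LG versus LL, and ADAMTS9 (-0.0041) in LG versus DP. Quantile normalization turned MMP11 (-0.42) and ADAMTSL3 (-0.012) in LG versus LL, gave 1 member higher in LG versus DP and lost 7 calls. A pseudocount of 0.1 gave 12 members higher and 3912 of all genes called in LG versus LL, and 1 member higher in LG versus DP, as did a fit of the DP and LG libraries alone. The adjusted p alone gave 26 members higher and 2 lower in DP versus LL, beside 4152 and 4207 of all genes (8359 together). In LG versus LL this rule gave 13 higher and 8 lower, beside 3760 and 3623 of all genes (7383 together). In LG versus DP it gave 2 higher and 24 lower, beside 2699 and 2413 of all genes (5112 together). The causes of these changes were not tested.

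With each library left out in turn, members higher in DP versus LL were 18 to 23, lower 0, those higher in LG versus LL 7 to 8 and lower 1 to 3, and those higher in LG versus DP 0 to 1 and lower 16 to 20. Of all 14701 genes, 1861 to 2105 were higher and 1251 to 1433 lower in DP versus LL. These ranges were 1487 to 1621 and 932 to 999 in LG versus LL, and 870 to 1002 and 891 to 1051 in LG versus DP. The single gene higher in LG versus DP was MMP15 without DP replicate 1, LG replicate 1 or LG replicate 3, and ADAMTS17 without DP replicate 3. Values that were not called and changed sign ranged as follows over the libraries left out. In LG versus LL they were MMP14 (-0.29 to 0.26), MMP11 (-0.046 to 0.072), ADAMTS4 (-0.29 to 0.031), ADAMTS1 (-0.32 to 0.025) and ADAMTSL3 (-0.038 to 0.32), in DP versus LL MMP9 (-0.81 to 0.087) and TIMP4 (-0.58 to 0.10), and in LG versus DP ADAM17 (-0.10 to 0.023). Leaving out linked genes took the ratio of TIMP to MMP sums to 4.30, 2.39 and 1.47 for LL, DP and LG, and the share of MMP2 to 47.8%, 77.2% and 56.2% of the MMP sum.

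The replicate numbers do not mark the same goat. Deviations from the stage means of same-numbered libraries correlated at -0.11 to 0.20 over genes, against -0.22 to 0.07 for other pairs of libraries from different stages. With the replicate number as a block, 21 members were higher and 0 lower in DP versus LL, 7 and 3 in LG versus LL and 0 and 20 in LG versus DP, the counts without the block, and the number of all genes called was 3340, 2564 and 1986.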
